A study of Mus musculus with 2 samples.

Results

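Integrins are the receptors through which cells hold on to the extracellular matrix and to each other, and 40 genes of this system were followed in spleen of mice labelled Loxl3 knockout and wild type. The set was a list of genes named by function and drawn up with earlier results of these data known, so its values describe these genes and support nothing further. It held 13 integrin alpha subunits, 7 integrin beta subunits, 10 matrix ligands (fibronectin, vitronectin, tenascin C, laminin chains and nidogen), 2 cell surface ligands and 8 cytoplasmic adhesion proteins. All 40 were named by at least 1 array probe, through the RefSeq accession that the scanner files give, out of 20655 genes so named. RNA came from the spleen of healthy, untreated male mice, labelled either Loxl3-/- (knockout, KO) or Loxl3+/+ (wild type, WT), and each genotype was hybridised to 1 one-colour Agilent array. Strain, age, the design of the deleted allele and any pooling of animals are not given in the sources used here. Loxl3 encodes a lysyl oxidase family member, an enzyme of a family known for crosslinking collagen and elastin, and the arrays compare spleen gene expression between the genotypes.

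An integrin is a pair of 1 alpha and 1 beta subunit that spans the membrane. Outside the cell it binds matrix proteins such as laminin or fibronectin, or surface proteins of other cells such as the ICAMs. Inside, talin and kindlin bind the beta tail and switch the receptor to its high-affinity state, while vinculin, integrin-linked kinase, parvins, paxillin, zyxin and focal adhesion kinase tie it to actin and to signalling. In the spleen the beta2 and beta7 integrins and the alpha4 subunit serve the traffic of leukocytes, and beta1 integrins and laminins hold together the sinuses, the vessels and the reticular meshwork.

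Values below are differences of log2 signal, KO-labelled minus WT array, after each array was divided by its own 75th percentile of probe signals. That percentile was a signal of 1400 on the KO-labelled array and 974 on the WT array, a ratio of 1.44, so raw signals of an equal gene are higher on the KO-labelled array. Errors after ± are those of the scanner software for the log2 difference. They are technical, hold no variation between animals, and had a median of 0.205 over genes. With 1 array per genotype no test was possible and no p-value is given, and precision is limited throughout by the number of arrays. A probe counts as measured where the software called it well above background on at least 1 array. Where that held on the KO-labelled array only, the value is a lower bound from the signals as read, with no allowance for the software error.

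Before the members, 3 facts of the arrays bear on their values. The probe of Loxl3 had signals of 125 on the KO-labelled array and 117 on the WT array, a scaled difference of −0.43 ± 0.29, and whether it lies in the deleted part is not given, so that array is called KO-labelled throughout. Markers of exocrine pancreas, a neighbouring organ, were higher on the KO-labelled array in 11 of 11 measured genes (2.52 to 4.83, median 4.08, led by Reg1 at 4.83 and Clps at 4.49), and Amy2b had no named probe. Neutrophil and platelet markers were lower in 13 of 13 and 9 of 9 measured genes, with medians of −1.62 and −1.61, led by Camp (−2.64), Ltf (−2.60), Treml1 (−1.91) and Gp1ba (−1.86). Medians of the other marker lists lay between −0.69 and 0.36. They were −0.69 for erythroid cells (Tal1 −1.15, Gata1 −1.12), −0.08 for T cells (Cd3d −0.46, Tcf7 0.37) and −0.05 for macrophages and monocytes (Cd5l −0.86, Cd163 0.73). Smooth muscle markers had −0.19, with 3 of 8 above 0 (Des 1.13, Myh11 0.57, Actg2 0.09) and 5 below, Myl9 (−0.49), Acta2 (−0.30) and Tagln (−0.28) among them. B cells had 0.10 (Fcer2a 1.13, Cd79a 0.75), endothelium and fibroblasts with reticular stroma 0.18 each, and adipose tissue with mesothelium 0.36 (Cfd 1.01, Plin1 0.76). That last list was split. The other measured adipocyte genes, Adipoq (0.74), Cidec (0.62) and Fabp4 (0.36), were also above 0. Of the mesothelial genes, Msln (−0.19), Upk3b (−0.06) and Wt1 (−0.01) were below 0 and Krt19 was at 0.002. The part these shifts play in the adhesion genes was not tested, and in whole tissue fewer cells of a type and less RNA per cell cannot be told apart.

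Of the 40 genes, 34 were measured, and 4 of them were higher by 2-fold or more on the KO-labelled array: the integrin subunits Itga9 and Itga1, the adhesion ligand Icam1 and the actin linker Vcl. None was 2-fold lower. Over all 13714 measured genes, 2.11% passed 2-fold on the higher side and 1.98% on the lower side. The members' median difference was 0.23, against −0.09 over all measured genes, and 25 of 34 members lay above 0 (73.5%), against 40.7% of all genes. Itga3 and Itga5 are counted there by bounds, which cannot fall below 0. Among genes above background on both arrays, 23 of 32 members lay above 0 (71.9%), against 39.3% of all genes. A further 6 members lay between 0.5 and 1, a band that held 7.43% of all genes, and none lay below −0.5, where 11.3% of all genes fell between −1 and −0.5. At a threshold of 1.5-fold, 8 of 34 members were higher and 0 lower, against 7.49% of all genes higher and 9.29% lower. Members are not independent replicates, and these counts describe 2 arrays. The share of 2-fold genes that were higher was 51.7% over all genes, 39.0% with each array scaled on its median, and 71.0% with scaling on probes above background on both arrays, a choice that moves the median of all genes to 0.05.

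**Figure D1:**
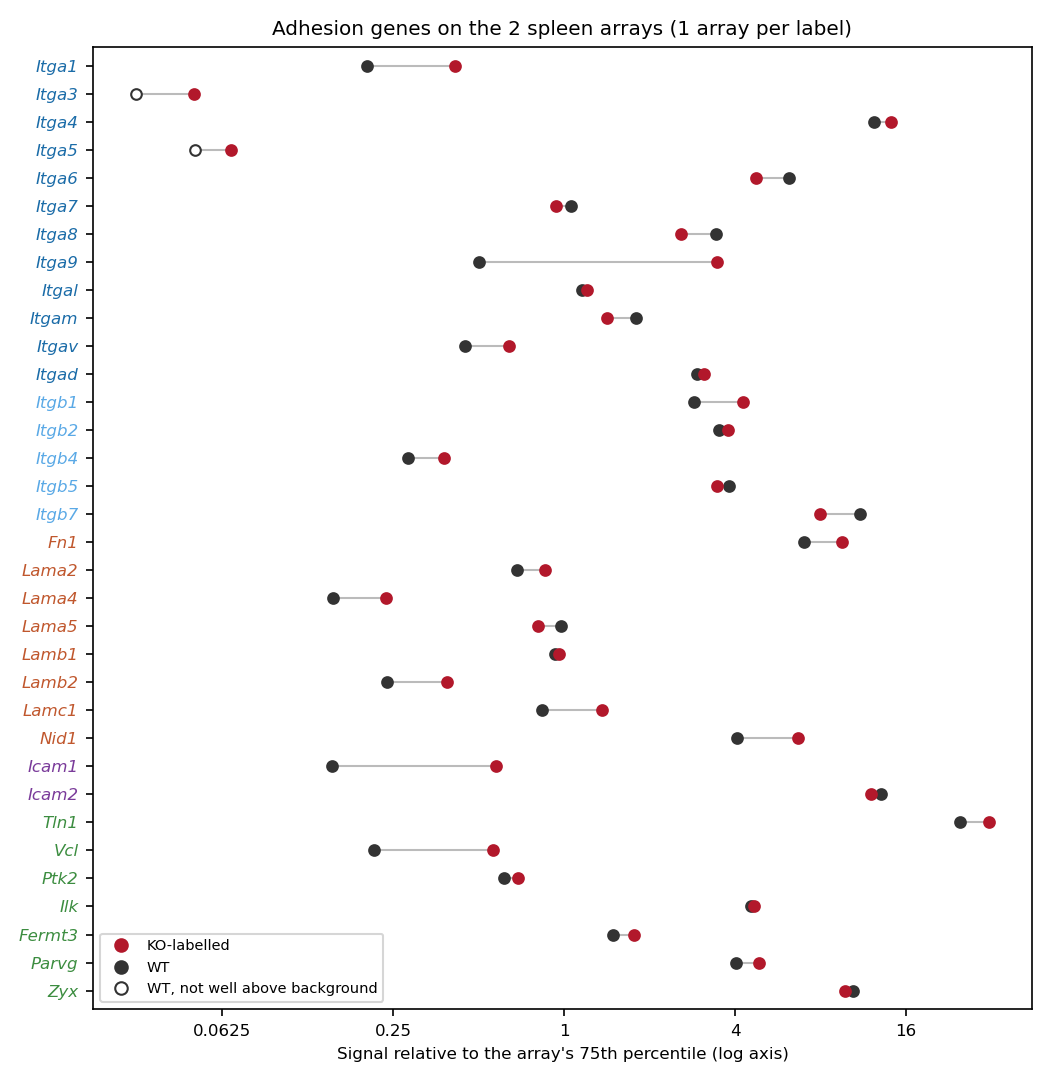
Signal of the 34 measured adhesion genes on the KO-labelled (red) and WT (dark) array, each gene by its brightest detected probe, as a multiple of the array's 75th percentile on a log axis. Gene names are coloured by role, an open symbol marks a probe not well above background, and the widest gaps belong to Itga9, Icam1, Vcl and Itga1, all higher on the KO-labelled array. Only the 2 points of a row can be compared, since probes differ in brightness.

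Among the alpha subunits, Itga9 stood far from the rest. Its subunit pairs with beta1 and binds tenascin C, VCAM-1 and osteopontin. The single Itga9 probe had a signal of 4831 on the KO-labelled array and 489 on the WT array. Relative to each array's 75th percentile this is 3.45 on the KO-labelled array and 0.502 on the WT array, a log2 difference of 2.78 ± 0.21 or 6.87-fold. It held rank 30 from the top among 13033 genes above background on both arrays. Its beta partner Itgb1, shared by most matrix-binding integrins, had relative signals of 4.28 on the KO-labelled array and 2.86 on the WT array (0.58 ± 0.20), and its dimmer probe gave 0.76. Of the ligands of alpha9beta1, Vcam1 differed by 0.05 by its brighter probe and by 0.39 ± 0.21 by its dimmer one. Tnc and Spp1, the osteopontin gene, were well above background on neither array.

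Itga1, encoding the alpha subunit of a collagen and laminin receptor, was 2-fold higher by its brighter probe alone. That probe had signals of 579.5 on the KO-labelled array and 197 on the WT array (1.03 ± 0.21, or 2.04-fold). The other probe, for the same transcript accession, had 248 on the KO-labelled array and 186 on the WT array and differed by −0.11 ± 0.25. The 2 probes therefore disagree in sign, and the median over them, 0.46, is below 2-fold.

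The remaining matrix-binding alpha subunits went both ways by smaller amounts. Itgav, the alpha subunit of vitronectin receptors, was at 0.50 ± 0.21, with relative signals of 0.638 on the KO-labelled array and 0.450 on the WT array, and its other probe was at 0.61. The laminin receptor gene Itga3 was not above background in WT. Its bound on the log2 difference was 0.21, under its software error of 0.54, and 0.09 with normexp background correction. The fibronectin receptor gene Itga5 was not above background in WT either, and its bound on the log2 difference was 0.42 as scaled here and 0 with normexp background correction, so it is given no direction. Itga6, Itga7 and Itga8 were below 0. Relative signals of the laminin receptor gene Itga6 were 4.72 on the KO-labelled array and 6.21 on the WT array (−0.39 ± 0.20). For Itga7, best known as a laminin receptor of muscle, they were 0.935 on the KO-labelled array and 1.06 on the WT array (−0.18 ± 0.21). Itga8, which binds nephronectin, had 2.58 on the KO-labelled array and 3.42 on the WT array (−0.40 ± 0.20). The collagen receptor gene Itga2 was well above background on neither array.

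**Figure D2:**
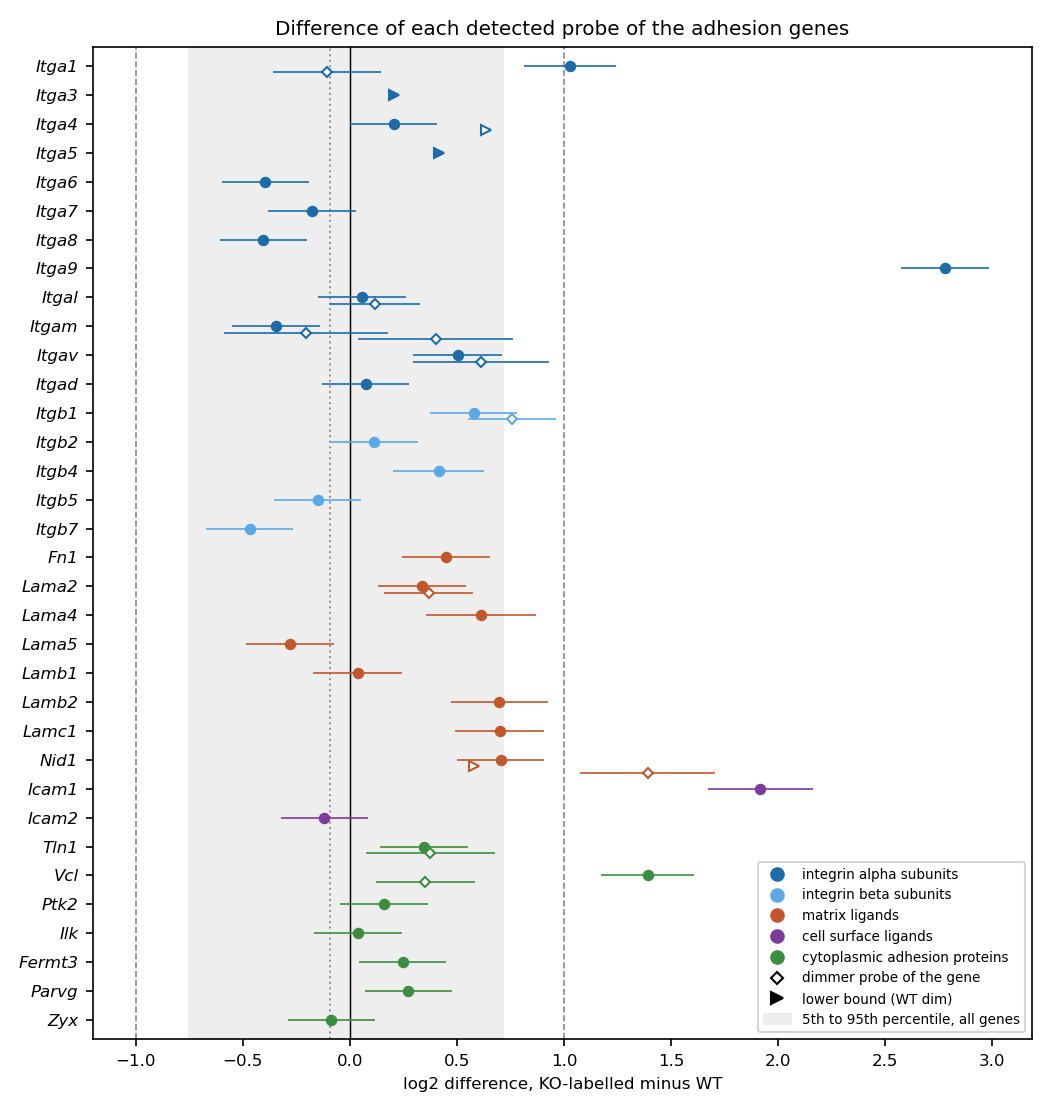
Difference of log2 signal, KO-labelled minus WT, for every detected probe of the adhesion genes; filled circles are the brightest probe of a gene, open diamonds its dimmer probes, triangles lower bounds, and bars the software's error. The grey band spans the 5th to 95th percentile of all measured genes (−0.75 to 0.72), the dotted line is their median, dashed lines mark 2-fold, and the 2 probes of Itga1 and of Vcl lie over 2-fold apart.

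The beta2 integrin genes among the members differed little beside these. Outside the members, Itgax and the beta2-like Itgb2l, given below, differed by 0.92 and −2.76. LFA-1, the lymphocyte receptor for ICAMs, is made of the products of Itgal and Itgb2. Itgal had relative signals of 1.21 on the KO-labelled array and 1.16 on the WT array (0.06 ± 0.20), and Itgb2 had 3.78 on the KO-labelled array and 3.50 on the WT array (0.11 ± 0.20). Itgad, the CD11d subunit known from red pulp macrophages, was at 0.07 ± 0.20. Itgam, the CD11b subunit of myeloid cells, had 1.41 on the KO-labelled array and 1.79 on the WT array (−0.34 ± 0.20) by its brightest probe. Its dimmer probes gave −0.21 ± 0.38 and 0.40 ± 0.36, so its direction depends on the probe. The neutrophil markers on the same arrays had a median of −1.62, with Cxcr2 and Mmp9 of mature neutrophils at −0.18 and −0.26.

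Itga4, whose subunit pairs with beta1 to bind VCAM-1 and with beta7 to bind MAdCAM-1, was at 0.20 ± 0.20. Itgb7 itself was the lowest of all 34 measured members, with relative signals of 7.98 on the KO-labelled array and 11.03 on the WT array (−0.47 ± 0.20). The Itga4 difference was about the size of its software error, while the Itgb7 difference exceeded its own, with a 95% range of −0.87 to −0.07 from that error alone. Both lie between the 5th and 95th percentile of all genes. With quantile normalization Itga4 was at 0.49 and Itgb7 at −0.25, and with loess they were at 0.50 and −0.21. All genes in the brightest class by mean signal, which holds both, had a median of −0.27 as scaled here. Among the other beta subunits, Itgb4, the partner of alpha6 in hemidesmosomes, was at 0.42 ± 0.21 and the alphav partner Itgb5 at −0.15 ± 0.20. Itgb6 and Itgb8, which encode alphav partners known for activating TGF-beta, were well above background on neither array.

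The matrix ligands lay mostly on the higher side, with 7 of 8 measured genes above 0, a median of 0.53 and none at 2-fold. Laminins are trimers of an alpha, a beta and a gamma chain in basement membranes, and nidogen bridges them to collagen IV. The gamma chain gene Lamc1, common to most laminins, had relative signals of 1.35 on the KO-labelled array and 0.834 on the WT array (0.70 ± 0.21). Lamb2, a beta chain gene, had 0.386 on the KO-labelled array and 0.238 on the WT array (0.70 ± 0.23). Lama4, the alpha chain gene known from vessel walls, had 0.236 on the KO-labelled array and 0.154 on the WT array (0.61 ± 0.25).

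Nid1, the nidogen gene, was higher with all 3 of its probes. The brightest had signals of 9294 on the KO-labelled array and 3971 on the WT array (0.70 ± 0.20, or 1.63-fold). A dimmer probe, with 259 on the KO-labelled array and 68.7 on the WT array, gave 1.39 ± 0.31. The third, not above background in WT, gave 0.58 ± 0.44. Not every chain followed: Lama2 was at 0.34 ± 0.21, Lamb1 at 0.04 ± 0.21 and Lama5 at −0.28 ± 0.21. Grouped after the values were seen, the 6 laminin chain genes and Nid1 had a median of 0.61, with 6 of 7 above 0. Endothelial and fibroblast markers had medians of 0.18 each on the same arrays and went both ways. Of the endothelial markers, 5 of 10 measured lay above 0 (led by Tek at 0.73 and Cdh5 at 0.67) and 5 below (led by Lyve1 at −0.49 and Egfl7 at −0.39). Lyve1 was not above background on the KO-labelled array, so its value is a bound, with a software error of 0.42. With only probes above background on both arrays, the medians were 0.36 for endothelium and 0.19 for fibroblasts and stroma. Of the fibroblast and stroma markers, 7 of 11 lay above 0 (led by Bgn at 1.27 and Col1a1 at 0.93), 3 below (Mgp −0.71, Pdgfrb −0.43, Dcn −0.18) and Lum had a bound of 0.

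Fn1, the fibronectin gene, was at 0.45 ± 0.20, with relative signals of 9.51 on the KO-labelled array and 6.96 on the WT array. Tnc was measured by none of its 2 probes. Vtn, encoding vitronectin, a plasma protein made mainly by liver, is printed 10 times on the array, and none of the 10 spots was called well above background on either array. Its spots read 45.9 to 74.5 (median 55.8) on the KO-labelled array and 8.52 to 35.6 (median 10.5) on the WT array. Relative to the 75th percentile of each array they were 0.0328 to 0.0532 on the KO-labelled array and 0.00875 to 0.0365 on the WT array, ranges that overlap, and no fold is given.

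Icam1 had the second largest difference of the members. It encodes the ligand of LFA-1 and of the CD11b integrin, a surface protein that inflammatory cytokines are known to induce. Its single probe had signals of 804 on the KO-labelled array and 148 on the WT array, which is 0.574 on the KO-labelled array and 0.152 on the WT array relative to the 75th percentile. The difference was 1.92 ± 0.24 on the log2 scale, or 3.78-fold, at rank 46 of 13033 genes. Icam2, the ICAM of resting endothelium and lymphocytes, was at −0.12 ± 0.20, with relative signals of 12.0 on the KO-labelled array and 13.0 on the WT array. Their integrin receptors, given above, differed by 0.11 or less for LFA-1 and by −0.34 for Itgam.

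Of the cytoplasmic proteins, Vcl stood out by its brighter probe. Vinculin binds talin and actin at sites of adhesion. That probe had signals of 784 on the KO-labelled array and 208 on the WT array (1.39 ± 0.22, or 2.62-fold, rank 108), while the other, for the same accession, had 313 on the KO-labelled array and 171 on the WT array and gave 0.35 ± 0.23. The probes have 1 sign but lie over 2-fold apart, and their median of 0.87 is below 2-fold. Talin, the activator of integrins that vinculin binds, showed closer probes: Tln1 was at 0.35 ± 0.20, with relative signals of 31.4 on the KO-labelled array and 24.7 on the WT array, and its dim probe was at 0.38.

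The rest of the cytoplasmic group lay near 0. Parvg, a parvin gene of blood cells, was at 0.27 ± 0.20 and Fermt3, encoding the kindlin of blood cells, at 0.25 ± 0.20. The focal adhesion kinase gene Ptk2 was at 0.16 ± 0.21, the integrin-linked kinase gene Ilk at 0.04 ± 0.20 and Zyx, encoding zyxin of actin fibres, at −0.09 ± 0.20. Pxn, the paxillin gene, was well above background on neither array. In this group 6 of 7 measured genes lay above 0, with a median of 0.25.

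Upstream sequence is shown for Icam1 and Vcl, the 2-fold higher members whose upstream windows held a match to the patterns named below. Their tabulated starts lie at or within 15 bases of the annotated gene start. Each window holds the 250 bases before the start, from RefSeq on GRCm38.p6, and is given 5′ to 3′ on the plus strand, chr9:21015690-21015939 for Icam1 and chr14:20929148-20929397 for Vcl. Capitals mark matches on either strand to TTCNNNGAA (the STAT pattern), TGANTCA (AP-1) or GGGCGG (SP1).
Icam1: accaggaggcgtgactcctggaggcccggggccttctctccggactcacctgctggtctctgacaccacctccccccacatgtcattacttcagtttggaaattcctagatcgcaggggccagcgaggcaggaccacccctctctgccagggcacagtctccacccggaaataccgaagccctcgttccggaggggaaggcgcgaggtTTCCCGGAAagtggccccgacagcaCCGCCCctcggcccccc
Vcl: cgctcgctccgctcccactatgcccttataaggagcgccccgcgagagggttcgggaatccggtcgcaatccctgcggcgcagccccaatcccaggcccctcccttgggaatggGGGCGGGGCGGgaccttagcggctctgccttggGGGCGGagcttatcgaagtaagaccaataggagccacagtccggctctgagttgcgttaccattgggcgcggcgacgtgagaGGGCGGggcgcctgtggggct
The Icam1 window holds 1 match to the STAT pattern, TTCCCGGAA, which begins 42 bases before the start, and 1 to the SP1 pattern on the opposite strand. The Vcl window holds 4 matches to the SP1 pattern, the first 2 sharing 1 base, and none to the others. The STAT pattern is present in 7.02% of all 32851 windows of this length in the table and the AP-1 pattern in 6.75%. The SP1 pattern is in 32.7%. Of the 40 members, 28 had entries, with 33 windows, of which 2 held the STAT pattern, 1 the AP-1 pattern and 17 the SP1 pattern. Itga1, whose tabulated start is the annotated gene start, held no match to these letters, and for that reason its window is not shown. The start tabulated for Itga9 lies inside the annotated gene, so Itga9 is not shown either. A match is a description of sequence and not a site of binding.

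Probes of the same gene gave a technical check where several were detected. Of 10 such members, 8 had all detected probes of the same sign, and Itga1 and Itgam did not. The gap between probes was at most 0.18 for Itgal, Itgav, Itgb1, Lama2 and Tln1, 0.43 for Itga4, 0.81 for Nid1, and 2-fold or more for Itga1 and Vcl. Itga9 and Icam1 each rest on a single probe.

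Other genes of the adhesion system, in 4 further lists, had a joint median of −0.05 over 98 measured genes. Of these, 42 lay above 0 (42.9%), 2 passed 2-fold on the higher side (2.04%) and 3 on the lower side (3.06%). Over all measured genes these shares were 40.7%, 2.11% and 1.98%, close to those of the further lists. Further integrin subunits had a median of −0.70, with 1 of 6 above 0. Itgb2l, a beta2-like gene, had signals of 88.2 on the KO-labelled array and 416 on the WT array (−2.76 ± 0.31). Itgb3, a beta subunit of platelets and other cells, was at −0.95 ± 0.20 with its other probe at −1.36, and Itgax, the CD11c subunit of dendritic cells, was the member above 0, at 0.92 ± 0.20. The platelet markers, a list that includes the Itgb3 partner Itga2b (−0.76), had a median of −1.61 on the same arrays, and the neutrophil markers −1.62.

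Further laminins, basement membrane and matrix ligands had a median of 0.24, with 12 of 19 above 0. Thbs1, the thrombospondin gene, an abundant product of platelets, had signals of 2611 on the KO-labelled array and 4795 on the WT array (−1.40 ± 0.20). Nid2, the other nidogen gene, was at 0.71 ± 0.25, and Npnt, encoding the alpha8beta1 ligand nephronectin, at 0.68 ± 0.27. The collagen IV genes Col4a1 and Col4a2, named after their values were seen, were at 0.63 ± 0.20 and 0.66 ± 0.22. The perlecan gene Hspg2 (−0.13) and the agrin gene Agrn (−0.38), chosen likewise, were below 0.

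Cell surface ligands and adhesion receptors outside the members had a median of −0.11. Bcam, a laminin receptor, was not above background in WT. Its bound on the log2 difference was 1.17, or 2.26-fold higher on the KO-labelled array, with a software error of 0.50. Selp, encoding the selectin of platelets and endothelium, was at −1.19 ± 0.36, and Jam2, a junctional adhesion gene, at −0.84 by its brighter and 0.30 by its dimmer probe. Further adhesion signalling genes had a median of −0.05, and 20 of 52 lay above 0. Among them Rap1a, encoding a small GTPase that activates integrins, was at 1.09 ± 0.35, with signals of 227 on the KO-labelled array and 74.2 on the WT array. The actin regulator gene Vasp was at 0.77 ± 0.20.

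**Figure D3:**
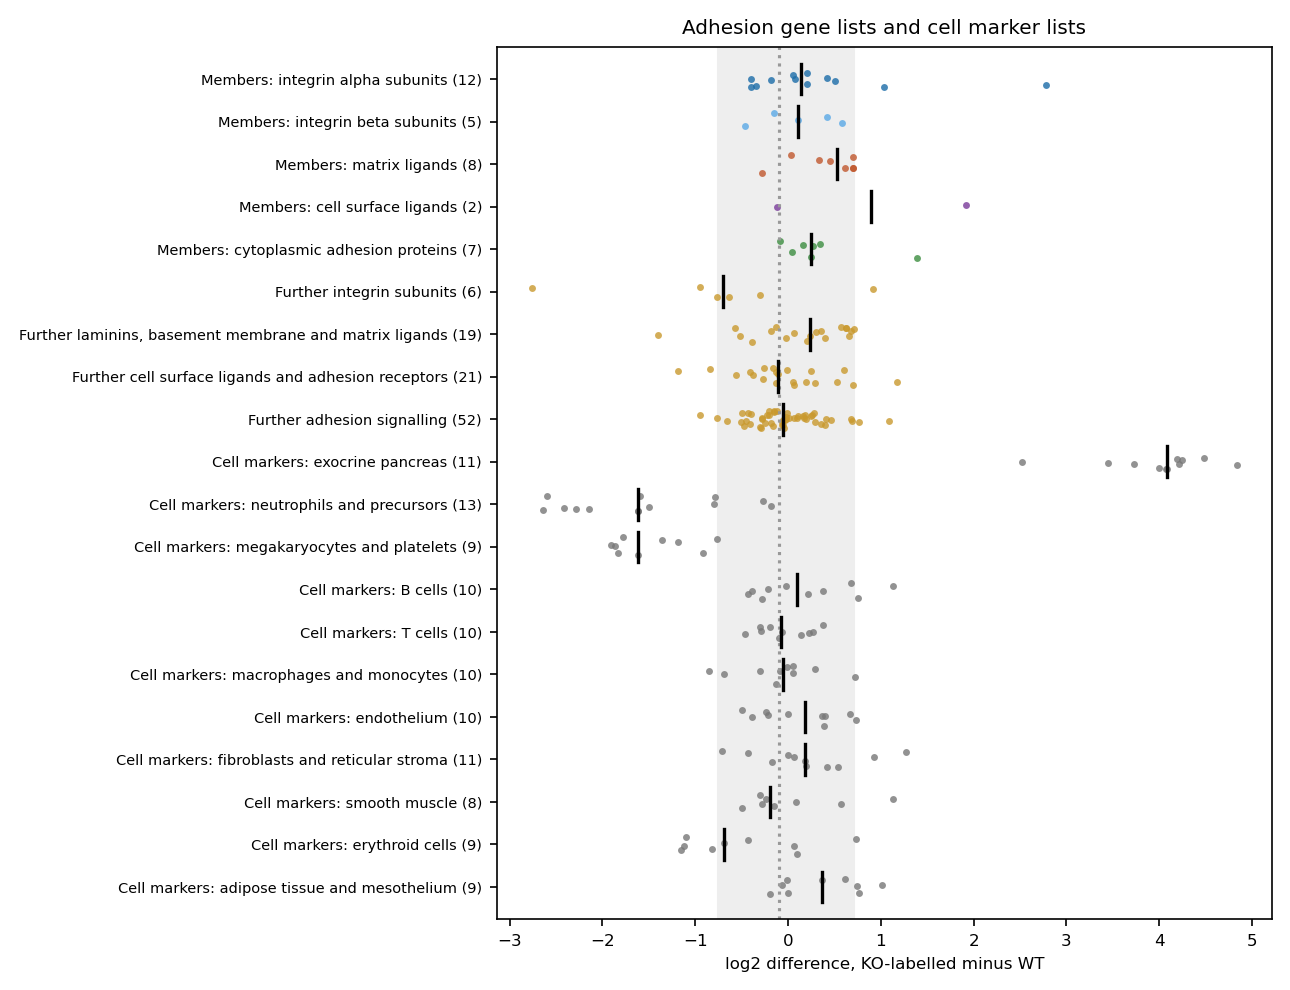
Differences of log2 signal, KO-labelled minus WT, for the adhesion genes by role, 4 further adhesion lists and 11 cell marker lists, each point a measured gene, black bars the list medians and numbers in brackets the measured genes. The grey band spans the 5th to 95th percentile of all measured genes and the dotted line is their median. Matrix ligands sit mostly right of that line, pancreas markers far right of it, and neutrophil and platelet markers left of it.

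**Figure D4:**
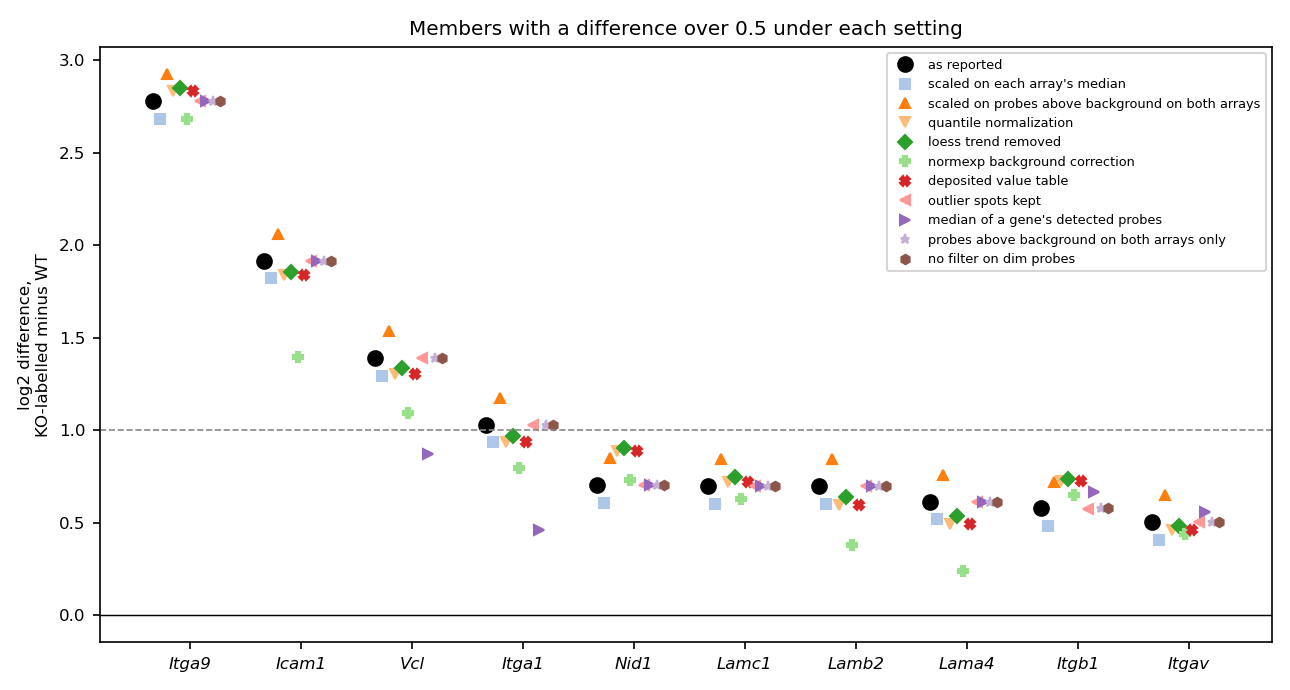
Log2 difference, KO-labelled minus WT, of the 10 members over 0.5, as reported (black) and under 10 other processing settings. Itga9 and Icam1 lie above the dashed 2-fold line under each setting, Vcl under all but the median of probes, and Itga1 on both sides of it.

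Across these settings Itga9 ranged from 2.68 to 2.93 and Icam1 from 1.39 to 2.06, its lowest value with normexp background correction. Vcl ranged from 0.87 to 1.54. Itga1 ranged from 0.46 to 1.18 and was under 2-fold in 6 of 11 settings. With normexp Lama4 was at 0.24 and Lamb2 at 0.38, while Lamc1 (0.60 to 0.84), Nid1 (0.61 to 0.90) and Itgb1 (0.48 to 0.74) moved less. Of members under 0.5 as reported, Tln1 ranged from 0.25 to 0.75 and Fn1 from 0.35 to 0.69. Under 6 other scalings and corrections 26 of 34 members kept their sign, 20 above and 6 below 0. The 6 below 0 were Itga6, Itga7, Itga8, Itgam, Itgb7 and Lama5. These counts use the brightest probe, and the probes of Itgam and of Itga1, counted above 0, disagree in sign. Itga3, also counted above 0, has a bound that cannot fall below 0, so its sign could not turn. The other 8 (Itga5, Itgal, Itgad, Itgb5, Lamb1, Icam2, Ilk and Zyx) reached or crossed 0, so they are given no direction.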

How the data were processed

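Spleen RNA labelled KO and WT was measured on 2 one-colour Agilent arrays of 1 slide, 1 per genotype. Per the file headers, the deposited intensity values per spot come from Feature Extraction 11.0.1.1 (protocol GE1_1100_Jul11, probe positions on mm9). The value table that the authors deposited holds log2 values with a median of 6.71 for each array, and these matched quantile-normalized processed signals (r = 1.00 of differences over 39420 probes). Its steps are not given in the sources used here.

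Of 44397 spots per array, 1377 were controls. Outlier spots (132 on the KO-labelled array, 110 on the WT array) were left out, and log2 processed signals were averaged per probe and scaled on the 75th percentile. Accessions were matched without versions to RefSeq (GRCm38.p6) and named 27226 of 39420 probes, and 12194 stayed unnamed. A gene was taken by its brightest probe well above background on at least 1 array. Where only 1 array passed, the value is a bound: the scaled bright signal over the dim probe's scaled signal or, if higher, over the lowest signal called well above background there. Counts of 2-fold genes use that bound. Over 268 probes printed repeatedly, the difference had a median SD of 0.112 between spots. The calculation was tested on simulated data.

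All members were accounted for. From each further list, genes at 2-fold and the largest differences, up to 3, were named, and from each marker list the 2 largest differences. An item that this rule would name is not reported here. The members and lists were chosen with earlier results of these data known. Alternatives used Python 3.11.15, with normexp from limma 3.58.1. That correction was run on median spot signals, since the scanner files used here list no mean signals, with an offset of 50.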

Additional observations from a re-analysis of the deposited data

How the results depend on the processing

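With 0 residual degrees of freedom no setting gives a test, so the settings only move values. Of 338 member values recomputed under other settings, 311 moved by less than the software error of the gene and 27 by more, and no member at 2-fold turned its sign. The members at least 2-fold higher numbered 4 as reported, 2 when probes of a gene were summarised by their median and 8 at a threshold of 1.5-fold, which 7.49% of all genes passed on the higher side and 9.29% on the lower side. The count lower stayed at 0. The median of the members exceeded that of all genes by 0.32 as reported and by 0.28 (normexp) to 0.39 (no filter on dim probes) otherwise. Further adhesion genes at least 2-fold higher numbered 2 as reported, 1 each with median scaling, normexp and probes above background on both arrays, and 13 of 98 at 1.5-fold. Those lower numbered 3, then 5 with median scaling and 10 at 1.5-fold. The neutrophil marker median of −1.62 became −1.38 with quantile normalization, −1.36 with loess and −1.38 in the deposited table. The macrophage median of −0.05 became 0.28, 0.30 and 0.28 in that order, and the fibroblast median of 0.18 became 0.39 with loess. The cause of these shifts was not tested. Over all genes, 290 were 2-fold higher and 271 lower as reported, 150 and 177 with normexp, 445 and 182 with scaling on probes above background on both arrays, and 613 and 699 with no filter. No paired analysis was possible because each group has 1 array. Signal over background limits Itga3 and Itga5, not above background in WT, and the 6 unmeasured members. Among dim members, normexp moved Icam1 to 1.39, Lama4 to 0.24 and Lamb2 to 0.38.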

Other observations

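The size of the difference varied with brightness over all genes. Split into 4 equal classes by mean signal, genes above background on both arrays had median differences of 0.04 in the dimmest class, 0.01 and −0.13 in the middle classes, and −0.27 in the brightest. The adhesion genes in the same classes had medians of 0.86 (4 genes), 0.34 (9 genes), 0.07 (7 genes) and 0.08 (12 genes). Of these 32 genes, 26 lay above the median of all genes in their own class. The lists differ in what they hold, and this is a description of 2 arrays.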
